A study of Mus musculus with 8 samples.

Results

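The genes described here encode 9 enzymes that supply nucleotides for DNA and RNA or remove uracil from DNA. They were chosen by symbol, with earlier results of these data known, as rows of the deposited table on the primary chromosomes. They are 9 of 52778 rows: Rrm1, Rrm2, Tyms, Tk1, Dut, Ung, Cad, Umps and Impdh2. Each had 1 row there, and all 9 passed the filter on low values (a mean of at least 1 TPM, the unit of transcript abundance scaled by transcript length and library total). They were measured by RNA sequencing in the ventricles of mouse (Mus musculus) embryos at embryonic day 11.5, in 4 libraries labelled cKO and 4 labelled control. The cKO embryos were Rps19bp1 fl/fl and Xmlc2-Cre +/−, a cross described as removing Rps19bp1, which encodes a nucleolar partner of the ribosomal protein Rps19, from cardiomyocytes, the cells in which the Cre is expressed. The labels give neither the controls' alleles nor whether embryos were pooled, enter wild-type C57BL/6 as the genotype of all 8 libraries including cKO, and put all 8 in 1 batch. The study text calls the 4 libraries of each group biological replicates.

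Cells build deoxynucleotides from ribonucleotides. Ribonucleotide reductase, a complex of the large subunit Rrm1 with the small subunit Rrm2, carries out that reduction, and its supply limits DNA replication. Thymidine nucleotides come from thymidylate synthase (Tyms), which methylates dUMP with a folate cofactor, or from salvaged thymidine through thymidine kinase (Tk1). Dut destroys dUTP so that uracil is not built into DNA, and Ung cuts out the uracil that is. Cad starts pyrimidine synthesis, Umps completes UMP, and Impdh2 commits purines to GMP. Several of these genes are transcribed mainly around S phase in dividing cells, and the ventricle divides actively at this stage.

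Promoter stretches of 4 of the genes are shown, among them the pair that works as a single enzyme (Rrm1 and Rrm2). Ung was taken for the largest difference between groups, and Tyms for a small difference. The 4 stretches are RefSeq sequence on GRCm38.p6, read 5′ to 3′ on the strand of the gene. They end before the gene's outermost start and hold no annotated exon of GENCODE M21. Rrm1 is chr7:102441445-102441694 (plus strand), Rrm2 is chr12:24708004-24708240 (plus), Ung is chr5:114130185-114130365 (plus) and Tyms is chr5:30073646-30073875 (minus). Capitals mark motif words found in either orientation.
Rrm1: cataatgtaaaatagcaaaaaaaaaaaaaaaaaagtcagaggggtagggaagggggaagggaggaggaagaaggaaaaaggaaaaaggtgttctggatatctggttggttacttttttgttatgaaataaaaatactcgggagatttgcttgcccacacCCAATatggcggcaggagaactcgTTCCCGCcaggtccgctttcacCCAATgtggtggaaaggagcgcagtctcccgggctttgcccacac
Rrm2: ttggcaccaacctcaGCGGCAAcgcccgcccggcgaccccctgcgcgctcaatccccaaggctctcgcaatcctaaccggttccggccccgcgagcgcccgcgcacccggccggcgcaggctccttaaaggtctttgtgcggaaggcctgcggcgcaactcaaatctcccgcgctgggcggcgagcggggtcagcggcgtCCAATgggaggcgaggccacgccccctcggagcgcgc
Ung: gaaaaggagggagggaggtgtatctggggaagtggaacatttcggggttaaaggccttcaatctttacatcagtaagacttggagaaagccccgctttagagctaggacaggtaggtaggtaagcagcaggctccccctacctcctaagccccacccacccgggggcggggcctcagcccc
Tyms: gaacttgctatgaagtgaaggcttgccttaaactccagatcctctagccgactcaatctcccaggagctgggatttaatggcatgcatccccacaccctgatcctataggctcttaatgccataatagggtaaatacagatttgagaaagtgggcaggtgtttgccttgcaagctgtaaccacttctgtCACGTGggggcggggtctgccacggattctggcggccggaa

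The words searched on both strands were, for E2F, TTCCCGC together with its variants TTCGCGC as well as TTGCCGC as well as TTGGCGC. The others were the CCAAT box, the E-box CACGTG and the CHR word TTTGAA. All 9 genes had a window of 250 bases before to 50 after a start. An E2F word stood in 4 of the 9 windows (Rrm1, Rrm2, Cad and Impdh2) and in 9.6% of 32851 windows of the same length. In Rrm1 and Rrm2 it lies before the start, and in Cad and Impdh2 after it. CCAAT stood in 3 windows (Rrm1, Rrm2 and Impdh2) against 37.4% of all, the E-box in 2 (Tyms and Impdh2) against 7.2%, and the CHR in 1 (Umps) against 17.9%. In Impdh2 the E2F word and a CCAAT overlap. The windows of Tk1, Dut and Ung hold none of these words, and that of Dut lies within the gene, downstream of its outermost start. These are letter matches only.

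The labels were first checked. Rps19bp1, on chr15:80260614-80264306 of GRCm38, had a mean of 15.0 ± 3.14 TPM in cKO against 39.9 ± 3.93 TPM in control (SD, n = 4 each). The extraction text speaks of cortical neurons, so marker genes were examined: the median level of 16 cardiomyocyte markers was 2805 TPM and that of 8 neuronal markers 0.290 TPM, with Neurod6 at 0 in every library. Libraries correlated at 0.990 to 0.994 within groups and 0.986 to 0.991 between them. TPM keeps no depth, so no counting error can be given, and the errors below are those between libraries. In whole tissue, fewer cells of a type and less RNA per cell cannot be told apart.

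Of the 9 genes, 5 were lower in cKO at an adjusted p under 0.05 (limma, adjusted over all 15541 tested rows), and 0 were higher. Ung, Rrm2, Dut, Rrm1 and Tk1 fell to between 65.3% and 82.3% of the control mean. Across all tested rows 4.23% were called lower and 2.16% higher, 6.40% in all. Because the 9 were chosen with earlier results of these data known, the shares of all tested rows are given as a description only. Umps, Tyms, Impdh2 and Cad did not pass. At an unadjusted p under 0.05, 6 of the 9 were lower and 0 higher (limma), against 23.7% of all tested rows in either direction. The groups did not overlap in 6 of the 9, the 5 called genes and Umps, all lower; 10.3% of all tested rows were lower and 5.33% higher without overlap. A value below 0 was found for 8 of the 9 and for 55.8% of all tested rows. The number called was 3 without cKO replicate 1 or control replicate 1, 2 or 3, and 2 with no filter on low values. The median log2 change of the 9 was -0.28, and that of all tested rows was -0.02.

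**Figure D1:**
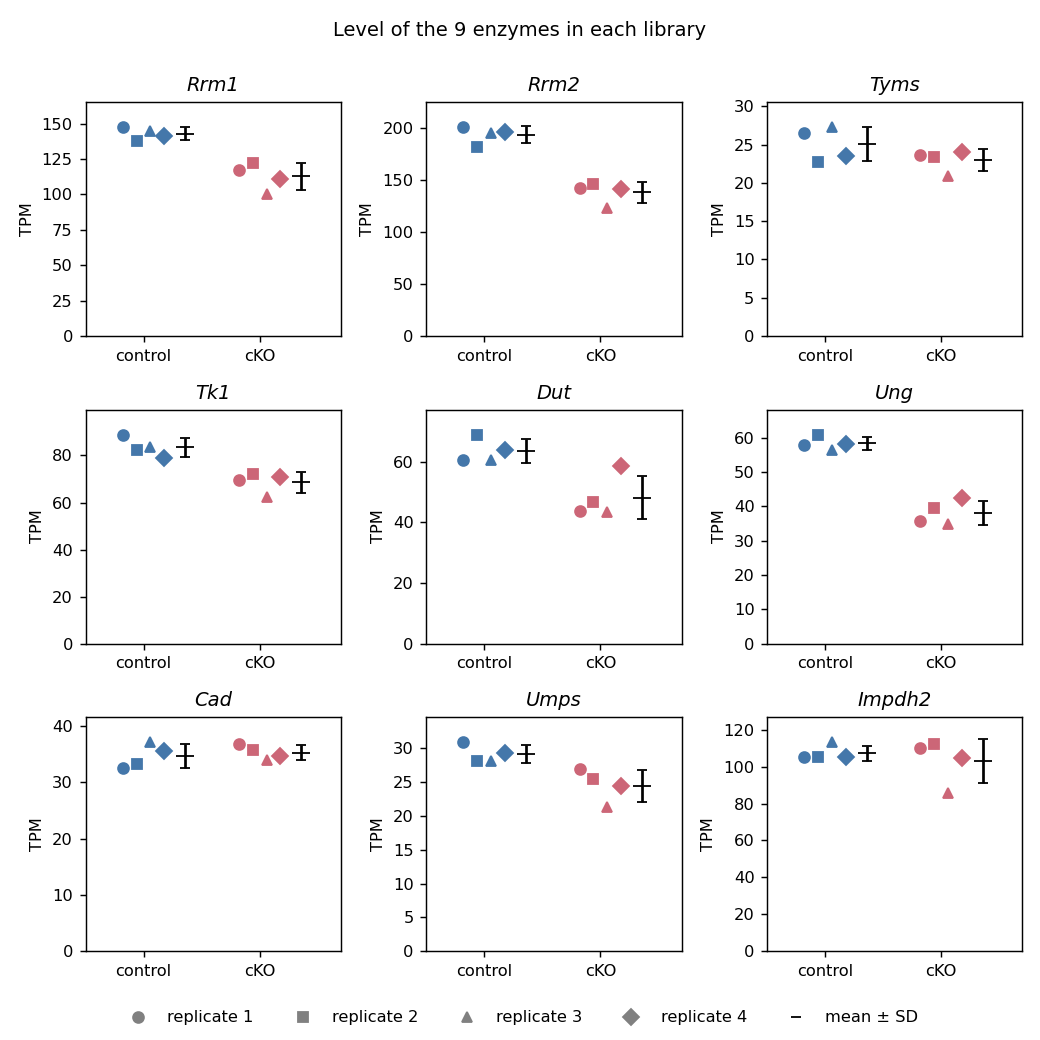
Level of each of the 9 enzymes in TPM (vertical axis, from 0) in the 4 control and 4 cKO libraries; each symbol shape is a replicate number and the black bar is the mean with its SD. The groups are separate in Rrm1, Rrm2, Tk1, Dut, Ung and Umps and overlap in Tyms, Cad and Impdh2, and cKO replicate 3 is the lowest cKO library in every panel.

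The order of levels can be read across genes because TPM is scaled by transcript length. In control, medians ran from Rrm2 (195 TPM) through Rrm1 (143), Impdh2 (105), Tk1 (83.0), Dut (62.3), Ung (58.1), Cad (34.4) and Umps (28.7) to Tyms (25.0). Neighbours in that order were separate in all 4 libraries except Dut and Ung, whose ranges overlapped. In cKO the order was the same, but Rrm1 overlapped Impdh2, Ung overlapped Cad, and Umps overlapped Tyms, while Dut and Ung were separate.

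Both subunits of ribonucleotide reductase fell. Rrm2 (chr12:24708254-24714146, plus strand), the small subunit whose level rises in S phase, stood at 142, 146, 123 and 141 TPM in cKO replicates 1 to 4 and at 201, 182, 195 and 195 TPM in control replicates 1 to 4. Every cKO library lay far below the lowest control library. The mean was 138 ± 10.3 TPM in cKO and 193 ± 8.15 TPM in control (SD, n = 4). On the log2 scale the difference was -0.49 (limma SE 0.0607, adjusted p = 0.00282). Rrm1 (chr7:102441695-102469771, plus strand), the large catalytic subunit, stood at 118, 122, 100.2 and 111 TPM in cKO and at 148, 138, 145 and 142 TPM in control. The groups were again separate, with cKO replicate 3 the lowest. Rrm1 changed by -0.34 on the log2 scale (SE 0.0623, limma adjusted p = 0.0148).

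The small subunit fell by more than the large one. The ratio of Rrm2 to Rrm1 was 1.22 ± 0.0325 in cKO and 1.35 ± 0.0253 in control (SD, n = 4), and the groups did not overlap (log2 difference -0.14, exact permutation p = 0.0286). This is the smallest p that 4 libraries against 4 can give, and after Benjamini-Hochberg adjustment over all 17 ratios examined it was 0.0405. Every ratio at the smallest p has this same adjusted value, which depends on how many of the 17 reached it. A separated gene over an unchanged one can reach it from the first gene alone, so the adjusted value adds no support of its own. Such ratios are formed within a library and do not depend on its scaling. Rrm2b, the alternative small subunit and a known p53 target that serves cells outside S phase, stood at 11.9, 13.0, 11.7 and 12.5 TPM in cKO and at 12.5, 12.8, 11.2 and 13.1 TPM in control. Its groups overlapped throughout (log2 change -0.01, 95% interval -0.16 to 0.14, limma adjusted p = 0.935). The ratio of Rrm2 to Rrm2b was lower in cKO, at 11.2 ± 0.613 against 15.6 ± 1.42 (SD, n = 4, log2 difference -0.48, exact permutation p = 0.0286, adjusted 0.0405). The predicted gene Gm3362 overlaps Rrm2b on the same strand, so the Rrm2b value is less certain.

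Of the enzymes of thymidine nucleotides, Tk1 was called lower and Tyms was not, but their ratio did not separate the groups. Tk1 (chr11:117815519-117826087, minus strand), the cytosolic thymidine kinase of dividing cells, stood at 69.5, 72.1, 62.2 and 70.8 TPM in cKO and at 88.9, 82.1, 83.8 and 78.9 TPM in control. The groups were separate, by a smaller gap than for Rrm2. Its log2 change was -0.28 (SE 0.0584, limma adjusted p = 0.0250), and this call was lost under 9 of 20 alternatives, with adjusted p up to 0.0691, among them leaving out cKO replicate 1 (log2 change -0.29) or control replicate 1 (-0.25), 2 (-0.29) or 3 (-0.28). Part of Tk1 (585 bases) overlaps Afmid on the opposite strand, and whether counting used strand is not given in the sources used here. Tk2, the mitochondrial thymidine kinase, had a log2 change of 0.10 (95% interval -0.03 to 0.23, limma adjusted p = 0.338). The ratio of Tk1 to Tk2 was 6.55 ± 0.415 in cKO and 8.59 ± 0.583 in control (SD, n = 4, exact permutation p = 0.0286, adjusted 0.0405).

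Tyms (chr5:30038546-30073645, minus strand) stood at 23.6, 23.4, 20.9 and 24.1 TPM in cKO and at 26.5, 22.8, 27.3 and 23.5 TPM in control. The groups overlapped, and only cKO replicate 3 lay below all controls. Its log2 change was -0.11 with a 95% interval of -0.28 to 0.05 (limma adjusted p = 0.377), so a decrease of the size seen for Tk1 lay just outside the interval and one of the size of Rrm2 well outside. The ratio of Tk1 to Tyms was 2.98 ± 0.0651 in cKO and 3.34 ± 0.219 in control (SD, n = 4), with overlapping groups (exact permutation p = 0.0571, adjusted 0.0747).

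Among the 9, Ung and Dut are the enzymes that keep uracil out of DNA, and both were called lower. Ung (chr5:114130366-114139321, plus strand), the uracil-DNA glycosylase, had the largest change of the 9. It stood at 35.8, 39.5, 34.8 and 42.4 TPM in cKO and at 58.0, 60.9, 56.4 and 58.2 TPM in control. The highest cKO library was well below the lowest control library. The mean was 38.1 ± 3.48 TPM in cKO and 58.4 ± 1.86 TPM in control (SD, n = 4). On the log2 scale the difference was -0.61 (limma SE 0.0646, adjusted p = 0.00128). Alkbh2 overlaps 868 bases of Ung on the opposite strand at 8.66 to 11.6 TPM, and its own log2 change was -0.12 (limma adjusted p = 0.477). Smug1, another uracil glycosylase, had a log2 change of -0.05 (95% interval -0.23 to 0.13, limma adjusted p = 0.740). The ratio of Ung to Smug1 was 4.19 ± 0.395 in cKO and 6.20 ± 0.739 in control (SD, n = 4, exact permutation p = 0.0286, adjusted 0.0405).

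Dut (chr2:125247248-125259049, plus strand), the dUTPase, stood at 43.8, 46.7, 43.4 and 58.6 TPM in cKO and at 60.7, 69.0, 60.6 and 63.9 TPM in control. In cKO, 3 libraries were far below the controls and replicate 4 lay just under them. Its log2 change was -0.40 (SE 0.0913, limma adjusted p = 0.0327). The call was lost under 12 of 20 alternatives, with adjusted p up to 0.111, including the omission of any single library other than cKO replicate 4 (log2 change -0.36 to -0.42 in those cases). The ratio of Dut to Tyms was 2.09 ± 0.247 in cKO and 2.56 ± 0.379 in control (SD, n = 4), with overlapping groups (exact permutation p = 0.0857, adjusted 0.104).

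The 3 enzymes that make ribonucleotides were not past the threshold. Umps (chr16:33954782-33967038, minus strand) stood at 26.9, 25.4, 21.3 and 24.4 TPM in cKO and at 30.9, 28.1, 28.2 and 29.3 TPM in control. All 4 cKO libraries were below all controls. The log2 change was -0.25 with a 95% interval of -0.40 to -0.09, and the limma adjusted p was 0.0727. Over 20 alternatives that p ranged from 0.0585 to 0.193.

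Cad (chr5:31054620-31078479, plus strand), the multifunctional enzyme of the opening steps of pyrimidine synthesis, stood at 36.9, 35.7, 33.9 and 34.6 TPM in cKO and at 32.5, 33.2, 37.1 and 35.6 TPM in control. The cKO range lay inside the control range. Its log2 change was 0.03 with a 95% interval of -0.10 to 0.15 (limma adjusted p = 0.805), an interval that holds none of the changes of the 5 called genes. The value turned to -8.01e-05 without control replicate 1. The ratio of Cad to Umps was 1.45 ± 0.0988 in cKO and 1.19 ± 0.109 in control (SD, n = 4), and the groups did not overlap (log2 difference 0.28, exact permutation p = 0.0286, adjusted 0.0405). That p was 0.0571 when any 1 cKO replicate was left out, with differences of 0.24 to 0.31. Cad shares 14 bases with Atraid at its start.

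Impdh2 (chr9:108560436-108565577, plus strand), which makes the precursor of GMP, stood at 110.2, 112, 85.9 and 105 TPM in cKO and at 105, 105, 113 and 105 TPM in control. Replicate 3 of cKO was far below the controls, replicate 4 lay just under the lowest of them, and the groups overlapped. Its log2 change was -0.06 with a 95% interval of -0.24 to 0.12 (limma adjusted p = 0.691). Omitting cKO replicate 3 turned it to 0.024. The row Impdh2-ps, at 31.9 to 42.7 TPM, can share reads with Impdh2, so this level is less certain. The ratio of Impdh2 to its paralog Impdh1 was 2.87 ± 0.187 in cKO and 2.72 ± 0.197 in control (SD, n = 4, exact permutation p = 0.343, adjusted 0.389).

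**Figure D2:**
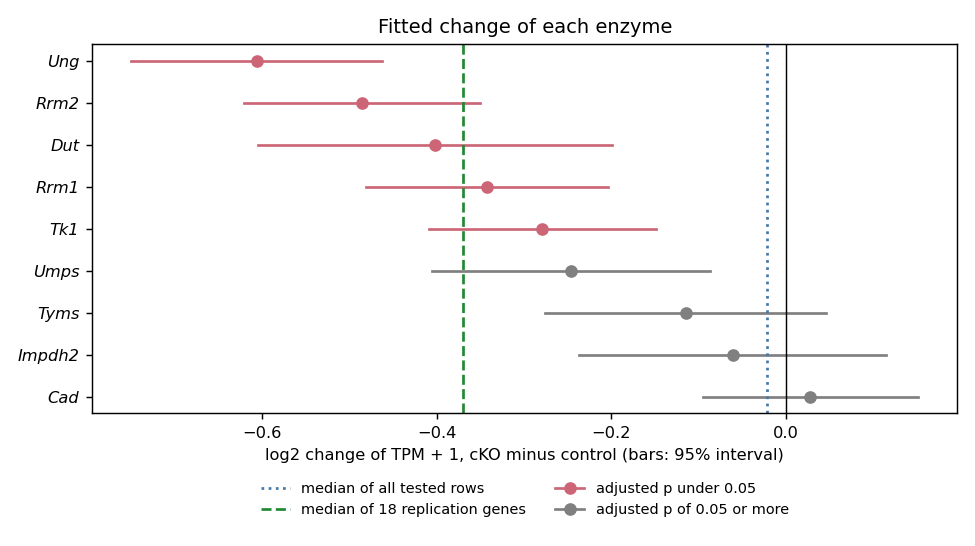
Fitted log2 change of TPM + 1 of each enzyme (horizontal axis, cKO minus control) with its 95% interval; red marks an adjusted p under 0.05, the dotted line the median of all tested rows (-0.02) and the dashed line the median of 18 replication genes (-0.37). Ung and Rrm2 lie lowest, and the intervals of Tyms, Impdh2 and Cad include 0.

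**Figure D3:**
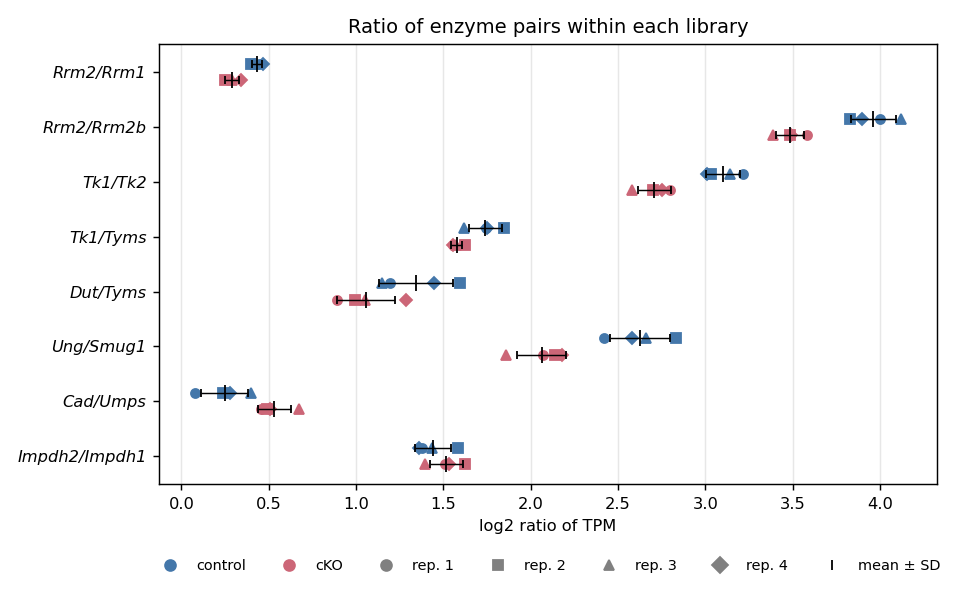
Log2 ratio of TPM (horizontal axis) for 8 pairs of enzymes in each library, control above and cKO below in each row, with mean and SD in black and a symbol shape for each replicate number. The groups are separate for Rrm2/Rrm1, Rrm2/Rrm2b, Tk1/Tk2, Ung/Smug1 and Cad/Umps and overlap in the other 3.

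The genes were then set against a list of DNA replication genes, chosen with earlier results of these data known. This list of 18 genes of replication licensing, the fork and G1/S cyclins had 14 members called lower and 0 higher. Across all tested rows 4.23% were called lower and 2.16% higher. The median log2 change of the list was -0.37. The 4 with the smallest p were Gins2 (-0.42), Mcm6 (-0.43), Cdc45 (-0.39) and Mcm2 (-0.37), with limma adjusted p between 0.00463 and 0.0121. For each enzyme the mean log2 TPM of this list was subtracted within each library. A value that is equal in both groups means that the enzyme moved by the same amount as the replication genes. All enzymes share this subtracted mean, so their relative values are not independent of each other.

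Relative to that list Ung and Rrm2 were lower in cKO. Ung stood at -0.26 ± 0.114 in cKO and 0.00292 ± 0.0880 in control on the log2 scale (SD, n = 4, difference -0.27, exact permutation p = 0.0286, adjusted 0.0405 over the 17 ratios). The p was 0.0571 without control replicate 2 (difference -0.23) or 4 (-0.26). Rrm2 stood at 1.59 ± 0.0139 and 1.73 ± 0.0320 (difference -0.14, exact permutation p = 0.0286, adjusted 0.0405). For Rrm1 the groups overlapped, with a difference of 0.01 (exact permutation p = 0.714), and Dut had a difference of -0.06 with wide scatter (exact permutation p = 0.629).

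The other 5 enzymes were higher than in control relative to the replication genes, with exact permutation p = 0.0286 and 0.0405 after adjustment for each. The differences were 0.38 for Cad, 0.29 for Impdh2, 0.23 for Tyms, 0.10 for Umps and 0.07 for Tk1. The median log2 change was -0.37 in the replication list and -0.02 in all tested rows. A gene that did not change therefore comes out higher by this measure. The share of all tested rows that would do so was not computed. The p of Tyms was 0.0571 without any 1 of the cKO replicates (differences 0.22 to 0.26). That of Tk1 was 0.0571 without cKO replicate 2, 3 or 4 or control replicate 3 or 4 (0.05 to 0.08), and that of Umps was 0.0571 without cKO replicate 1 (0.07) and 0.0857 without control replicate 3 (0.08).

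**Figure D4:**
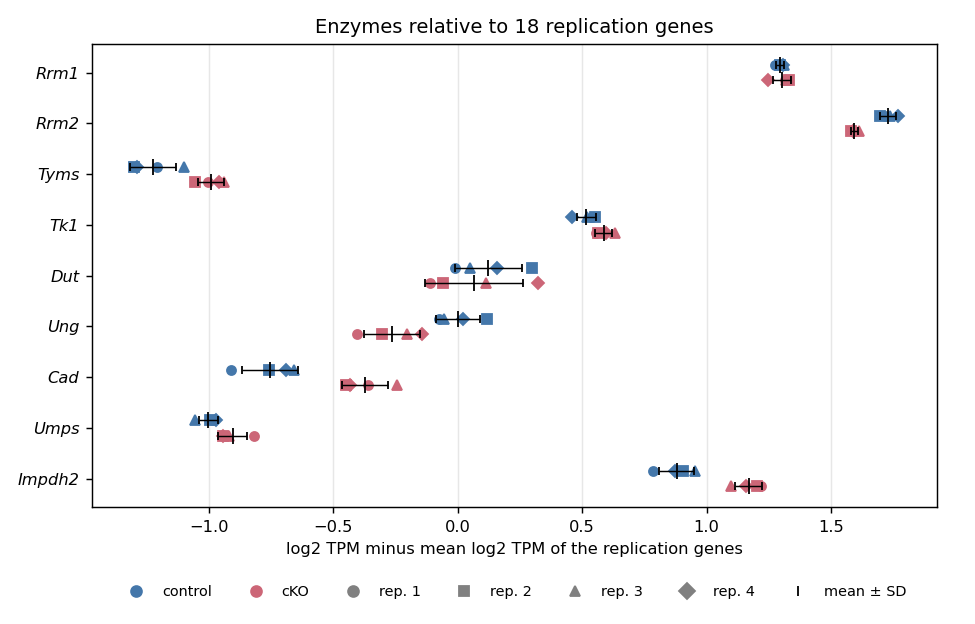
Level of each enzyme relative to 18 replication genes (horizontal axis, log2 TPM minus their mean log2 TPM) in each library, control above and cKO below in each row, with mean and SD in black and a symbol shape for each replicate number. Ung and Rrm2 lie to the left of their controls, Cad, Impdh2 and Tyms to the right, and Rrm1 and Dut overlap theirs.

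The other genes of nucleotide metabolism were described by list. In 8 lists with 86 genes in all, 83 were tested, 6 were called lower, against 4.23% of all tested rows, and 0 higher, with a median log2 change of -0.09. At an unadjusted p under 0.05 (limma) 26 of the 83 were lower and 2 higher, against 23.7% of all tested rows in either direction. Without overlap between groups 17 were lower and 2 higher, against 10.3% and 5.33% of all tested rows. The untested genes were Dpyd, Gda and Xdh, each under the minimum. Of 3 other pyrimidine and 12 other purine synthesis genes 0 were called by limma, and 1 and 6 respectively were lower at an unadjusted p under 0.05. A value below 0 was found for 11 of the 12 purine genes, with a list median of -0.14. Of 13 folate genes, with a median of 0.01, 2 were called lower, both of the cytosolic folate cycle. They were Shmt1 (log2 change -0.26, limma adjusted p = 0.0362), which charges folate from serine, and Mthfd1 (-0.23, limma adjusted p = 0.0430). The mitochondrial enzymes Shmt2 (-0.26), Mthfd1l (-0.30) and Mthfd2 (-0.23) had values near these without a call. The mitochondrial Aldh1l2 (-0.11) and Mthfd2l (0.05) did not.

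Of 13 salvage genes and 7 transporters, 0 were called by limma, against 4.23% of all tested rows called lower and 2.16% higher. At an unadjusted p under 0.05, 2 salvage genes were lower and 0 higher, and 1 transporter was lower and 1 higher. Of 12 tested genes of nucleotide breakdown, 2 were called lower: Ampd3 (log2 change -0.39, limma adjusted p = 0.0414), an AMP deaminase, and Nudt1 (-0.30, limma adjusted p = 0.0480), which clears oxidised purine nucleotides. Of 14 genes of uracil and base excision repair, 1 was called lower: Lig1 (-0.34, limma adjusted p = 0.00949), the ligase that also joins replication fragments. At an unadjusted p under 0.05 (limma), 4 of the 12 breakdown genes and 6 of the 14 repair genes were lower, and 0 were higher. Of all tested rows, 23.7% passed that p in either direction. A value below 0 was found for 9 of the 12 and 12 of the 14, against 55.8% of all tested rows. In place of 6 genes over these lists, 1 was called lower without cKO replicate 1, cKO replicate 3 or control replicate 2, 2 without control replicate 1 or 3, and 3 without control replicate 4.

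**Figure D5:**
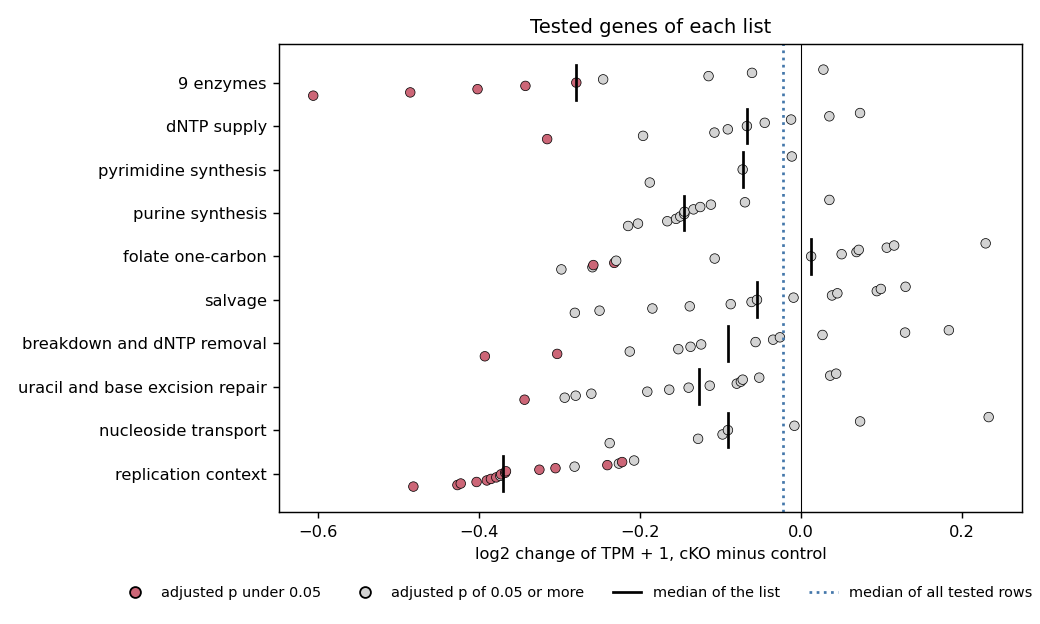
Fitted log2 change of TPM + 1 (horizontal axis, cKO minus control) of each tested gene in the 9 enzymes, 8 lists of nucleotide metabolism and the replication genes, with red for an adjusted p under 0.05, a black bar for the list's median and a dotted line for the median of all tested rows. The 9 enzymes spread from -0.61 to 0.03, and the other metabolic lists centre between -0.14 and 0.01.

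Libraries also differed within groups. Replicate 3 of cKO was the lowest cKO library for all 9 enzymes and the lowest of all 8 for 8 of them, and its mitochondrial transcripts took 16.2% of TPM against 13.2% to 14.1% in the other cKO libraries and 11.4% to 12.2% in control. Its part in the changes was not tested beyond leaving it out: 4 of the 9 genes were then called lower (Rrm1, Rrm2, Tk1 and Ung), and with values rescaled without mitochondrial and globin rows all 5 were. Deviations from group means were compared over the 8 libraries as a description. Of the 36 pairs of enzymes, 8 had a Pearson r over 0.8, and 1 without cKO replicate 3. An r below 0 was found for 4 of the 36 pairs, and for 15 without that library. The pair of Rrm1 and Dut, for example, had r = -0.065, and -0.831 without it. Rrm1 and Rrm2 had r = 0.937, and 0.778 without that library. Dut and Ung had r = 0.919, and 0.922 without it.

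The rows most like a member in these deviations were sought among 12514 named rows, again over 8 libraries that share their scaling and cKO replicate 3. For Rrm2 they were Rpp30, Sar1a, Cct2 and Skp2, with r from 0.979 to 0.981, and 0.926 to 0.972 without cKO replicate 3. For Cad they were Mrc2, E2f2, Mbtps1 and Zfp697, with r from 0.965 to 0.988, and 0.972 to 0.991 without it. For Impdh2 they were Zfp422, Kcnab2, Mcm8 and Senp1, with r from 0.971 to 0.978, and 0.806 to 0.849 without it. As the highest of 12514 rows over 8 libraries, such values can arise from the search alone. The r without cKO replicate 3 reuses libraries that picked the rows, so it is no separate check.

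Markers of some other cells differed between the groups. Across all tested rows limma called 4.23% lower and 2.16% higher. Epicardial markers were higher in cKO, with 5 of 8 called. Their summed level was 458 to 560 TPM in cKO and 390.3 to 451 TPM in control. Mesenchymal markers had 4 of 8 called higher, with sums of 795 to 999 TPM against 551 to 695 TPM. Of 16 cardiomyocyte markers, 1 was called lower (Nkx2-5, log2 change -0.48), and their sums overlapped at 55776 to 58710 TPM in cKO and 56256 to 61013 TPM in control. At an unadjusted p under 0.05 (limma), 4 of the 16 were lower (Nkx2-5, Tnni1, Myh6 and Atp2a2) and 1 was higher (Nppa, log2 change 0.44), each without overlap between groups. Of all tested rows, 23.7% passed that p in either direction. Without overlap, 10.3% of them were lower and 5.33% higher. Endothelial sums were 778 to 882 TPM against 728 to 775 TPM, with 0 of 8 called by limma and 4 higher at an unadjusted p under 0.05. Erythroid sums were 2019 to 4329 TPM against 2240.5 to 8156 TPM, with 0 of 8 called and 0 past an unadjusted p of 0.05. Macrophage sums were 16.5 to 40.6 TPM against 16.7 to 30.9 TPM, with 0 of 6 tested markers called and 1 higher at an unadjusted p under 0.05. The part of these cells in the changes of the 9 enzymes was not tested.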

How the data were processed

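The authors deposited 1 table of TPM values for 52778 rows and 8 libraries. The submitters' processing notes name Trim Galore 0.6.7, HISAT2 2.2.1, StringTie 2.2.1, FastQC, featureCounts, DESeq2 and GRCm38, with no role or order. Which tool made the TPM, the annotation and the use of strand are not given in the sources used here. Row names hold symbol, chromosome, strand, start and end, and those of the 9 enzymes equal RefSeq's on GRCm38.p6. Library type is described both as stranded mRNA and as depleted of ribosomal RNA.

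Values were analysed as log2(TPM + 1), which understates changes of low genes, with limma 3.58.1 in R 4.3.3: lmFit on group, eBayes with a trend, two-sided, rows with a mean of at least 1 TPM (15541), adjusted by Benjamini-Hochberg. Ratios used log2 TPM and exact two-sided permutation tests over 70 assignments. On simulated data with 15541 genes, 80% of changes of 0.5 and 30% of 0.25 (log2) were recovered, 4.35% of calls were false, and 0 calls were made with none changed. The changed genes were drawn only from rows well above the filter on low values, and noise was independent between genes. These rates therefore do not cover low rows or deviations that genes share within a library. The members and lists were chosen with earlier results of these data known. The r without cKO replicate 3 was added after seeing the data. Named genes were the 9, up to 4 called genes of each list by p, partners in ratios, and the 4 rows with the highest r of deviations for Rrm2, Cad and Impdh2. Alternatives were pseudocounts 0.1 and 5, other filters, 3 scalings, no trend, array weights, a replicate block, erythroid and Y-linked scores as covariates, and omission of each library. Depth per library is unknown from TPM. The values of 1 gene of the lists are not reported here.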

Additional observations from a re-analysis of the deposited data

Results flagged for a closer look

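Impdh2 in control had 1 library apart from the others: replicate 3 stood at 113 TPM, while the other 3 lay at 105 TPM, so the gap took 0.941 of the group's range, above Dixon's critical value for 4 samples. It was the 1 such case among 52 groups of 4 examined, and chance gives about 1 in 20.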

How the results depend on the processing

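Over 20 alternatives of the limma fit, Ung and Rrm2 kept their direction and call in all, and Rrm1 in 19 (log2 change -0.34, adjusted p = 0.0536 with no filter on low values, where 32491 rows were tested). The 5 enzymes called lower became 2 with no filter, 3 with quantile normalization, without a trend and with the Y-linked covariate, and 3 to 5 when single libraries were left out. Tk1 lost its call with no filter or without a trend (-0.28 in both), quantile normalization (-0.22) and the Y-linked covariate (-0.22), and had -0.31 to -0.23 when single libraries were left out. Dut lost its call with no filter or without a trend (-0.40 in both), quantile normalization (-0.35), the erythroid (-0.38) and Y-linked covariates (-0.42), and had -0.50 to -0.36 when single libraries were left out. The cause was not tested. These values changed sign: Cad was -8.01e-05 without control replicate 1 (up to 0.0614 without others), Impdh2 was 0.0241 without cKO replicate 3 (down to -0.103), and relative to the replication genes Rrm1 was -0.00165 without cKO replicate 2 and -0.00032 without control replicate 1 (up to 0.0258), and Dut was 0.00215 without cKO replicate 1 and 0.00114 without control replicate 2 (down to -0.143).

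Rows called, 994 in all, became 347 with no filter, 609 without a trend, 337 with the Y-linked covariate and 390 to 938 when single libraries were left out. Of these 336 were higher and 658 lower, against 383 and 380 after quantile normalization, 383 and 419 after median-ratio scaling, and 386 and 388 after rescaling without mitochondrial and globin rows. The 6 other nucleotide genes called lower became 2 with no filter, median-ratio scaling or either covariate, 3 after the rescaling, and 1 to 6 when single libraries were left out, while the 0 called higher became 1 with quantile normalization, median-ratio scaling or without cKO replicate 4. An exact p under 0.05 was found for 5 enzyme ratios and 7 relative values. When single libraries were left out, 4 to 6 ratios and 5 to 7 relative values had one, counted over all of them. The ratio of Tk1 to Tyms, not among the 5, passed without control replicate 3 (log2 difference -0.20, exact permutation p = 0.0286). It also passed with a pseudocount of 1 added to both genes (-0.16, exact permutation p = 0.0286).

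Same-numbered libraries did not deviate together (r from -0.089 to 0.067), so the replicate number is not taken as a pairing. With a replicate block, 420 rows, 4 of the 9 enzymes and 1 other nucleotide gene were called, Tk1 (-0.28, adjusted p = 0.0623) not among them. The sign-flip test within replicate numbers cannot go below 0.125, so with the replicate block 0 ratios and 0 relative values could pass.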

Other observations

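Outside the called genes, nucleotide genes whose groups did not overlap were looked at after their values were seen. Over the 83 tested genes, 17 were lower and 2 higher in cKO without overlap, against 10.3% and 5.33% of all tested rows. Those not called included Gmps, which turns XMP into GMP (log2 change -0.21, limma adjusted p = 0.0620), Dguok, the mitochondrial deoxyguanosine kinase (-0.28, limma adjusted p = 0.0502), and the base excision repair genes Mbd4 (-0.26, limma adjusted p = 0.0508) and Fen1 (-0.28, limma adjusted p = 0.0539). The mitochondrial folate enzymes Shmt2 (-0.26, limma adjusted p = 0.109) and Mthfd1l (-0.30, limma adjusted p = 0.111) had values near those of their cytosolic partners Shmt1 and Mthfd1. The 2 higher without overlap were Slc25a36, a mitochondrial pyrimidine nucleotide carrier (0.23, limma adjusted p = 0.0607), and Uprt (0.09, limma adjusted p = 0.422).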
